A study of Mus musculus with 19 samples.

Results

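A set of 5 genes that mark the 2 kinds of vomeronasal sensory neurons (VSNs), or act upstream of both, were followed across the whole series. The rule that names them uses their known roles, and it was set with earlier results of these data known. Gnai2 and Meis2 stand for the apical neurons, Gnao1 and Tfap2e for the basal neurons, and Bcl11b for the shared lineage. These 5 genes are all of the genes so chosen among 35596 genes in the files, and all 5 passed the filter on low counts. Messenger RNA was sequenced from the whole vomeronasal organ (VNO) at postnatal day 21, in 6 groups of 3 libraries from 2 Cre lines in which Cre removes a floxed part of Smad4. AP-2εCre is a knock-in at Tfap2e itself and acts in immature basal VSNs, and OMPCre is a knock-in at Omp and acts in mature VSNs of both kinds. Within each line the libraries were labelled Wild Type, Cre +/- (Het) or Cre +/- with Smad4 Flox (cKO). The methods name Smad4 flox/flox animals and Cre heterozygotes as the sequenced controls, while elsewhere the paper speaks of wild type controls. The Wild-type libraries were therefore taken to be Smad4 flox/flox without Cre, which their labels do not state. The cKO animals were Cre +/- and Smad4 flox/flox. For the Het animals the labels give the Cre allele only. The Het and cKO animals of the AP-2εCre line therefore both carried 1 Cre allele at Tfap2e, which their Wild-type controls did not.

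The VNO detects pheromones with 2 populations of sensory neurons that arise from common progenitors. Apical VSNs express V1r receptors together with the G protein subunit Gαi2, the product of Gnai2, and project to the anterior accessory olfactory bulb. Basal VSNs express V2r receptors together with Gαo, the product of Gnao1, and project to the posterior bulb. Meis2 encodes a homeodomain factor found in apical VSNs. Tfap2e encodes AP-2ε, a factor that appears as basal VSNs differentiate and that helps to keep their basal character. Bcl11b encodes a zinc finger factor that acts as VSNs are born and choose between both fates.

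The depth lay between 43385516 and 134042284 estimated counts in the 18 libraries and the 1 left out of the comparisons. All samples were labelled female. The cell type label names immature basal VSNs in the AP-2εCre line and mature VSNs of both kinds in the OMPCre line, although the tissue was whole VNO and Gnai2, Omp and genes of mesenchyme, endothelium and glia were present in every library. The library labelled AP-2εCre Wild-type replicate 3 held the Y-linked gene Ddx3y at 43.3 CPM (counts scaled to library size), against at most 0.399 CPM in any other library, which goes against its label of female. The edgeR calls that use it, and the member levels and ratios of the AP-2εCre cKO against both controls, are also given without it, and most other values include it. AP-2εCre Het replicate 1 was the lowest of the 18 libraries for Trpc2, the cation channel of VSN transduction, at 50.0 CPM. The floxed gene Smad4 was at 33.8 to 66.5 CPM in the AP-2εCre cKO libraries and 39.6 to 81.0 CPM in their controls, which overlapped. For OMPCre it was at 54.4 to 62.4 CPM in the cKO and 64.8 to 83.8 CPM in the controls, which did not overlap. The floxed part is a single exon, so counts over the whole gene check the deletion only in part. In such bulk tissue, fewer neurons of a kind and less RNA per neuron cannot be told apart.

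The G protein pair on which the apical and basal division is usually read is shown first by sequence, because Gnao1 has 2 coding ends that the files count apart. Below are the last 60 coding bases before the stop codon of the most counted Gnai2 transcript and of both Gnao1 ends, from GENCODE vM21 on GRCm38, 5′ to 3′. Capitals in Gnai2-201 and Gnao1-207 mark bases that differ from Gnao1-201, and capitals in Gnao1-201 mark bases that differ from Gnao1-207.
Gnai2-201: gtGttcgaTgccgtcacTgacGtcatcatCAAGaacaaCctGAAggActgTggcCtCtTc
Gnao1-201: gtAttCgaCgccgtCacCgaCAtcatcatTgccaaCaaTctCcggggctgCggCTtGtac
Gnao1-207: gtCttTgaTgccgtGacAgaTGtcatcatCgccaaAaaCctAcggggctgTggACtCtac
The Gnai2 stretch lies at chr9:107615638-107615697 on the minus strand, in the last coding exon. The Gnao1-201 stretch lies at chr8:93966993-93967052 and the Gnao1-207 stretch at chr8:93956190-93956249, both on the plus strand and in different last coding exons. Gnai2-201 differed from Gnao1-201 at 17 of these 60 bases and Gnao1-207 differed from Gnao1-201 at 15. The coding sequence of Gnao1-203 was identical to that of Gnao1-201, while Gnao1-207 shared its length of 1062 coding bases, differed first at base 738 and differed at 88 bases in all.

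Tfap2e and Gnao1, the members that moved most alike over the libraries, and Bcl11b are shown with the 250 bases before their RefSeq starts (GRCm38.p6). Capitals mark matches to the AP-2 motif GCCNNNGGC on either strand, since the Cre line disrupts an AP-2 gene.
Tfap2e: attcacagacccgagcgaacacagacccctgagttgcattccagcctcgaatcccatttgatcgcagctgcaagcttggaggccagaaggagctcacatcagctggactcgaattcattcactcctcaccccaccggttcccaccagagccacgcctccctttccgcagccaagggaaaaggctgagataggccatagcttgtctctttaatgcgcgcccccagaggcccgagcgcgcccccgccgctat
Gnao1: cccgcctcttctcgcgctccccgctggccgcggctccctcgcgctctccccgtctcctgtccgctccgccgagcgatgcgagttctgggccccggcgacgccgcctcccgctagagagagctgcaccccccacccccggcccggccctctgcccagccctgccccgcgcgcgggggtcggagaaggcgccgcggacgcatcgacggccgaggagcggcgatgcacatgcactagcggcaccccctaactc
Bcl11b: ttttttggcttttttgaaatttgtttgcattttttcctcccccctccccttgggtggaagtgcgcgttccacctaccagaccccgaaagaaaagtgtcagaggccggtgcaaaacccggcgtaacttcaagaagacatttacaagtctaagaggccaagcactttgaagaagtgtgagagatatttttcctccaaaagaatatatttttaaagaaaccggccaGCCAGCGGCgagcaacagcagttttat
These windows lie at chr4:126736270-126736519 (minus strand), chr8:93810588-93810837 (plus strand) and chr12:108003415-108003664 (minus strand). The table of promoters held 4 of the 5 members, Gnai2 being the other. Among the 4, only the Bcl11b window held the AP-2 motif, in a match that began 27 bases before the start, and 13.7% of 32851 windows in the table held it. The MEIS motif TGACAG, present in 15.9% of windows, and the palindromic SMAD motif GTCTAGAC, present in 0.167%, had no match in the 4 windows, also searched on both strands. The AP-2 match is a description of these letters and not of a bound site.

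The transcripts of the members were next compared on a scale that allows for length. TPM, the authors' value per transcript length, was added over transcripts of at least 1000 bases, a limit chosen after the values were seen. On that scale Gnai2 was the highest member, at 148 ± 33.6 TPM (SD, n = 18), and was above Meis2 in 18 of 18 libraries. Meis2 followed at 58.7 ± 13.3 TPM and Gnao1 at 51.4 ± 10.39 TPM. These neighbours lay within each other's spread, Meis2 being higher in 14 of 18 libraries. The 2 transcription factors Tfap2e, at 6.50 ± 2.16 TPM, and Bcl11b, at 4.01 ± 1.06 TPM, were far lower, and Tfap2e was above Bcl11b in 16 libraries. When TPM was added over all transcripts, the order of the first 3 was different, with Gnao1 at 363 ± 78.5, Gnai2 at 338 ± 127 and Meis2 at 231 ± 37.5 TPM. In Gnao1, transcripts under 1000 bases held 5.74% to 14.0% of the counts and 83.2% to 87.6% of the summed TPM. Comparisons between libraries therefore rest on counts per gene, scaled to CPM with trimmed-mean (TMM) normalization.

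The first comparison was of Cre heterozygotes with Wild-type controls in the AP-2εCre line, where 1 copy of Tfap2e carries Cre. Tfap2e was at 15.5, 14.0 and 16.6 CPM in the Wild-type replicates 1 to 3 and at 5.43, 8.18 and 8.88 CPM in the Het replicates. All 3 Het libraries lay below all 3 Wild-type libraries. The log2 fold change was -1.03 ± 0.156 (SE), and Tfap2e fell, to 48.8% of the Wild-type mean (edgeR quasi-likelihood test, adjusted p = 0.0138). It was the only one of the 5 members called, 1 of 5, in a comparison in which 0.17% of 19465 tested genes were called at an adjusted p under 0.05. Reads of the intact and the Cre-carrying allele cannot be told apart in counts per gene. Without the Wild-type library that goes against its sex label the log2 fold change was -0.97 and the adjusted p 0.0855, and without Wild-type replicate 1 the adjusted p was 0.0613, so that the call rests on each of these libraries while the direction does not. Tfap2e was also not called with counts from length-scaled TPM (edgeR, adjusted p = 0.0538) or with the line fitted alone (edgeR, adjusted p = 0.187). Within the libraries named by a letter and a number the log2 difference was -1.14 (2 against 2), and between the pair named by line it was -0.90. The 2 forms of library name are all that the files give, and whether they mark batches is not stated.

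**Figure D1:**
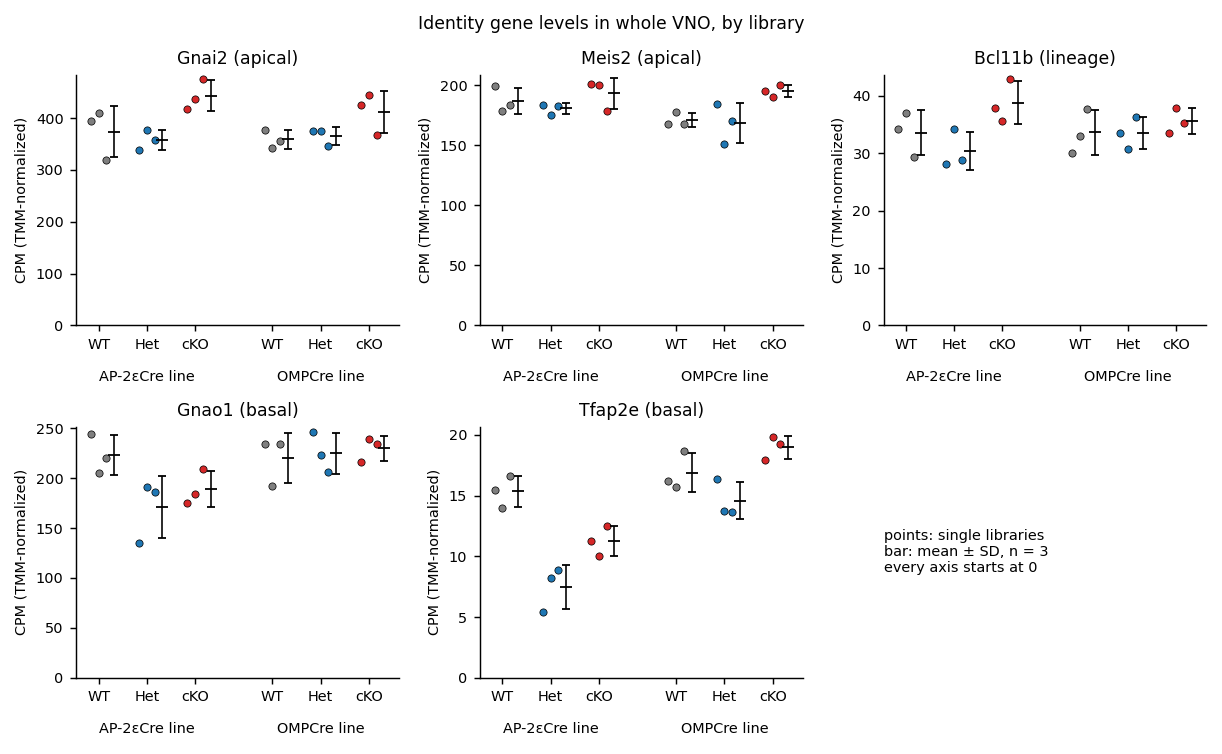
TMM-normalized CPM (y axes, from 0) of the 5 genes in each library, by genotype and Cre line (x axes), with points for single libraries and bars for the mean ± SD (n = 3). Tfap2e in the 3 AP-2εCre Het libraries lies at 5.43 to 8.88 CPM, below all other libraries.

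Gnao1, the G protein gene of the same neurons, was at 244, 206 and 220 CPM in the Wild-type replicates and at 135, 191 and 186 CPM in the Het replicates of the AP-2εCre line. Here too the groups did not overlap, as for 2 of 5 members and 9.88% of all tested genes in this comparison, and the lowest value came from Het replicate 1, the library with the low Trpc2. The log2 fold change of -0.38 ± 0.130 did not pass the test over all genes (edgeR, adjusted p = 0.638), nor did the -0.39 without the Wild-type library that goes against its label (adjusted p = 0.765) or the -0.24 without Het replicate 1 (adjusted p = 1). Gnai2 was at 374 ± 48.7 CPM in the Wild-type and 358 ± 19.8 CPM in the Het libraries (SD, n = 3), a log2 fold change of -0.06 ± 0.102. Meis2 was at 187 ± 10.7 and 181 ± 4.44 CPM, and Bcl11b at 33.6 ± 3.91 and 30.3 ± 3.34 CPM. For these 3 genes the groups overlapped, and without that Wild-type library their log2 fold changes were -0.17, -0.06 and -0.23 (edgeR, adjusted p of at least 0.844). The lower values of the basal pair thus stood beside overlapping values of the apical pair, with the spread of Gnao1 set largely by 1 library.

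The same comparison in the OMPCre line, where Tfap2e is intact, gave no called member, 0 of 5, with 0.0462% of genes called. Tfap2e was at 16.2, 15.7 and 18.7 CPM in Wild-type and at 16.3, 13.7 and 13.6 CPM in Het replicates, which overlapped (log2 fold change -0.21 ± 0.154). Gnao1 was at 220 ± 24.8 and 225 ± 20.2 CPM. The difference between the lines in the Het effect on Tfap2e was -0.82 ± 0.218 on the log2 scale, with an unadjusted p of 0.00183 and an adjusted p of 0.708 in the edgeR fit over 18 libraries, and -0.76 without the Wild-type library that goes against its label, so the lines were not shown to differ. In that test 0.0257% of genes and 0 of 5 members were called. Gnao1 differed between the lines by -0.41 ± 0.184 (edgeR, adjusted p = 0.822), or by -0.27 without AP-2εCre Het replicate 1.

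Loss of Smad4 was then read against both kinds of control. In the AP-2εCre line no member was called by edgeR, 0 of 5 against Wild-type controls, where 0.149% of genes were called, and 0 of 5 against Het controls, where 0.139% were called. Tfap2e was at 11.2, 10.0 and 12.5 CPM in the cKO libraries. These 3 values lay above every Het value and below every Wild-type value. Of the 5 members 3 separated cKO from Het and 2 cKO from Wild-type libraries, beside 14.74% and 13.52% of all tested genes, and with 3 against 3 libraries the exact permutation p of such a gene is 0.1, the smallest possible. Against Het controls, which share the Cre allele, the log2 fold change was 0.58 ± 0.155 (edgeR, adjusted p = 0.207), and against Wild-type controls it was -0.45 ± 0.154 (adjusted p = 0.443), or -0.39 without the Wild-type library that goes against its label (adjusted p = 0.753). DESeq2 called the first of these (adjusted p = 0.0432), and beside it and Tfap2e in Het against Wild-type it called no member in any of the 9 comparisons. Of all tested genes DESeq2 called 0.73% in AP-2εCre Het against Wild-type, 0.956% in cKO against Wild-type and 1.42% in cKO against Het, and 0.591%, 0.349% and 0.565% in the OMPCre line. It called 0.565% between the Wild-type groups and 0.375% and 0.272% for the line differences of Het against Wild-type and of cKO against Het. At an unadjusted p under 0.05, edgeR counted 2 of 5 members in AP-2εCre Het against Wild-type, beside 5.74% of all genes, 2 in cKO against Wild-type, beside 7.84%, and 3 in cKO against Het, beside 10.08%. The OMPCre counts were 0, 1 and 2 in the same order, beside 6.76%, 5.13% and 4.76%. Between the Wild-type groups the count was 0, beside 6.19%, and for the line differences 2 and 0, beside 5.81% and 5.05%. The choice of control thus turned the direction for Tfap2e, and with both controls pooled the log2 difference was 0.08, or -0.11 without Het replicate 1 and 0.21 without the Wild-type library that goes against its label.

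**Figure D2:**
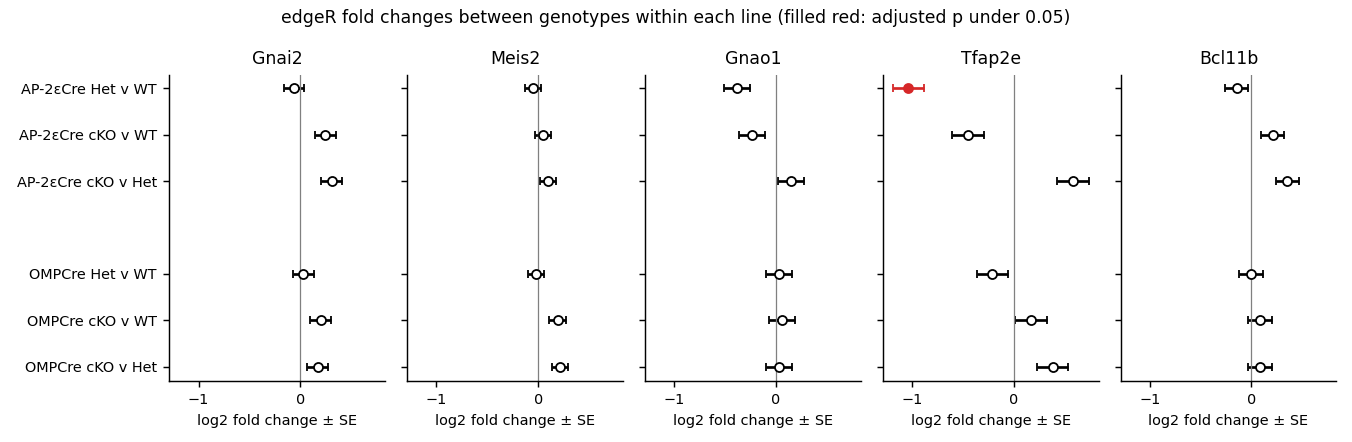
Log2 fold changes (x axes) with standard errors for each gene in the 6 comparisons of genotypes within a line (rows), from edgeR over 18 libraries. Only Tfap2e in AP-2εCre Het against WT, filled red at -1.03, passed an adjusted p under 0.05.

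The cKO comparisons of the OMPCre line gave 0 of 5 members called against Wild-type controls, beside 0.0205% of genes, and 0 of 5 against Het controls, beside 0.0822% of genes. With the replicate number as a block, 5 genes in place of 16 were called in the latter comparison. Tfap2e was at 17.95, 19.8 and 19.2 CPM in the cKO libraries. All 3 lay above the 3 Het libraries, while the lowest fell below the highest Wild-type library. In this line 2 of 5 members and 10.52% of all tested genes separated cKO from Het libraries. The log2 fold change against Het was 0.38 ± 0.154 (edgeR, adjusted p = 0.971). Against both controls the exact permutation p was 0.0595. With single libraries left out it ranged from 0.0179, without Wild-type replicate 3, to 0.107, without cKO replicate 3 among others. Over both lines, with labels permuted within each line, the mean log2 difference of cKO from Het for Tfap2e was 0.50 (exact two-sided permutation test over 400 assignments, p = 0.005, the smallest it can give). By the same test against Het, 4 of 5 members and 8.69% of all tested genes had an unadjusted exact permutation p under 0.05. Against both controls the Tfap2e difference was 0.18 (exact permutation within lines, p = 0.381). The first test and its form with both controls were chosen after the values of both lines were seen. The difference between the lines in this effect was 0.20 ± 0.218 (edgeR, adjusted p = 0.981), or 0.014 without AP-2εCre Het replicate 1, with 0.0308% of genes and 0 of 5 members called.

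Among the apical genes, Gnai2 was at 418, 436 and 476 CPM in the AP-2εCre cKO libraries, and at 319 to 410 CPM in the 6 controls. All 3 cKO libraries were above all 6 controls, which held for no other member in this line. In this line 4.94% of tested genes separated the cKO from the 6 controls in either direction. The ratio of the geometric means was 1.21 (exact two-sided permutation test, 3 against 6, p = 0.0238, with 0.0119 the smallest possible). Without the Wild-type library that goes against its label the log2 difference moved from 0.28 to 0.24 (exact permutation test, p = 0.0357). The p was 0.0714 without cKO replicate 2 or 3 and 0.0536 without Het replicate 3 (exact permutation tests). In the OMPCre line Gnai2 was at 425, 444 and 367 CPM in the cKO and 342 to 378 CPM in the controls, with cKO replicate 3 inside the range of the controls (ratio 1.13, exact permutation test, p = 0.0476). That p stayed under 0.05 only without cKO replicate 3, and was 0.0536 to 0.179 without any of the other 8 libraries (exact permutation tests) and 0.417 on summed TPM. The permutation p-values of the 10 comparisons of a member with both controls are unadjusted. Under 0.05 were 2 of 5 members in each line, beside 9.01% of all tested genes in the AP-2εCre and 4.39% in the OMPCre line. In edgeR the largest Gnai2 fold change was 0.31 ± 0.102 on the log2 scale, for AP-2εCre cKO against Het (adjusted p = 0.321). With counts from length-scaled TPM it was 0.73 (edgeR, adjusted p = 0.706), and on summed TPM the log2 difference of that cKO from both controls was 0.87 (exact permutation test, p = 0.0476). Myeloid cells also express Gnai2, and of their markers Csf1r was at 89.1 to 105 CPM in the AP-2εCre cKO, 81.7 to 86.8 CPM in Het and 71.0 to 87.0 CPM in Wild-type libraries, so that it separated the cKO as Gnai2 did. Cd68 was at 26.9 to 41.7 CPM in the cKO and at most 31.4 CPM in the controls, and overlapped. All 4 markers, with Lyz2 and Aif1, had higher means in cKO than in Het, with a median log2 fold change of 0.31, beside 49.9% of all genes with higher means. Their sum was 342 to 972 CPM in cKO, 396 to 586 in Het and 424 to 688 in Wild-type libraries, which overlapped, and no marker was at 0. The part of myeloid cells in the Gnai2 values was not tested.

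Meis2 gave the reverse order of the lines. In the OMPCre line it was at 195, 190 and 200 CPM in the cKO libraries and at 151 to 185 CPM in the 6 controls, so that the groups did not overlap (ratio 1.15, exact permutation test, p = 0.0119, the smallest possible). It was the only member to separate in that line, where 2.33% of tested genes did so. In the AP-2εCre line Meis2 was at 201, 200 and 178 CPM in the cKO and 176 to 199 CPM in the controls, and overlapped (exact permutation test, p = 0.286). The p was 0.0357 without cKO replicate 3 and 0.321 without the Wild-type library that goes against its label (exact permutation tests). Leaving out each OMPCre library in turn kept the exact permutation p of that line between 0.0179 and 0.0357. On summed TPM, where short transcripts held 66.4% to 82.1% of the Meis2 value, the exact permutation p was 0.274 in the OMPCre and 0.0119 in the AP-2εCre line. The difference between the lines in cKO against Het was -0.12 ± 0.114 for Meis2 and 0.14 ± 0.145 for Gnai2 on the log2 scale, with adjusted p-values of 0.981 for both in edgeR. The lines were thus not shown to differ for either apical gene. Over both lines, the cKO libraries were higher by 0.23 in log2 for Gnai2 (exact permutation within lines, p = 0.00113), by 0.14 for Meis2 (p = 0.00581 by the same exact permutation), by 0.18 for Bcl11b (p = 0.0227) and by 0.0066 for Gnao1 (p = 0.95). These p-values are unadjusted, the test over both lines was chosen after the values were seen, and 3 of 5 members and 8.49% of all tested genes had a p under 0.05. Against Het alone the difference was 0.24 for Gnai2 and 0.16 for Meis2 (exact permutation within lines, p = 0.015 for each), 0.22 for Bcl11b (p = 0.03) and 0.10 for Gnao1 (p = 0.38).

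Basal Gnao1 did not separate the cKO libraries from their controls in either line. It was at 175, 184 and 210 CPM in the AP-2εCre cKO and 135 to 244 CPM in the 6 controls (exact permutation test, p = 0.821, and 1 without the Wild-type library that goes against its label). Within those controls, the cKO values lay between the Het and Wild-type means of 171 and 223 CPM. OMPCre cKO libraries held Gnao1 at 216, 240 and 234 CPM, and their controls held it at 192 to 246 CPM (exact permutation test, p = 0.619). The log2 differences, -0.04 and 0.05, both changed sign on summed TPM.

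Bcl11b, the lineage factor, was at 37.8, 35.6 and 42.9 CPM in the AP-2εCre cKO libraries and at 28.0 to 37.1 CPM in the controls. cKO replicate 2 lay below the highest control, and the ratio was 1.22 (exact permutation test, p = 0.0357), a log2 difference of 0.28 that was 0.60 on summed TPM. The exact permutation p was 0.0893 without the Wild-type library that goes against its label, and 0.0536 to 0.179 without cKO replicate 1 or 3, Wild-type replicate 1 or any of the Het replicates. Against Het alone the log2 fold change was 0.35 ± 0.116 (edgeR, adjusted p = 0.319). For the OMPCre line Bcl11b was at 33.5 to 38.0 CPM in the cKO and 30.1 to 37.7 CPM in the controls (exact permutation test, p = 0.345). Bcl11b is also a gene of T cells, and the T cell markers Cd3e, Cd3g, Cd4, Cd8a and Lck summed to 9.16 to 9.33 CPM in the AP-2εCre cKO, 6.54 to 9.93 CPM in the Wild-type and 5.40 to 9.49 CPM in the Het libraries, which overlapped. Among these markers, none of which was at 0 in any group, Cd3e was at 0.685 to 0.927 CPM in that cKO and at most 0.678 CPM in its controls. The part of T cells in the Bcl11b values was not tested. Between the Wild-type groups of both lines no member was called, 0 of 5, with 0.00514% of genes called. The widest member difference there was -0.14 ± 0.154, for Tfap2e, on the log2 scale.

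The ratio of apical to basal transcripts was then taken within each library, which removes the scaling between libraries. Gnai2 over Gnao1 was 1.61, 1.995 and 1.45 in the AP-2εCre Wild-type libraries, 2.50, 1.97 and 1.92 in the Het and 2.39, 2.37 and 2.27 in the cKO. All cKO ratios were above all Wild-type ratios, and Het replicate 1 was the highest of the 9. Against both controls the cKO ratio was 1.25 times higher (exact two-sided permutation test, p = 0.0952, adjusted p = 0.286 over 6 ratio tests). Leaving out Het replicate 1 gave a log2 difference of 0.40 in place of 0.32 and an exact permutation p of 0.0357, and leaving out the Wild-type library that goes against its label gave 0.24 and an exact permutation p of 0.125. The log2 difference was 0.49 against Wild-type alone, 0.15 against Het alone and 0.75 on summed TPM. In the OMPCre line the ratio was 1.64 ± 0.135 in Wild-type, 1.63 ± 0.0887 in Het and 1.80 ± 0.204 in cKO libraries (SD, n = 3 each, exact permutation test, p = 0.155). Without cKO replicate 3 the log2 difference was 0.23 in place of 0.13 (exact permutation test, p = 0.0357). With other single libraries left out, the difference fell as low as 0.063 and the exact permutation p rose as high as 0.464.

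**Figure D3:**
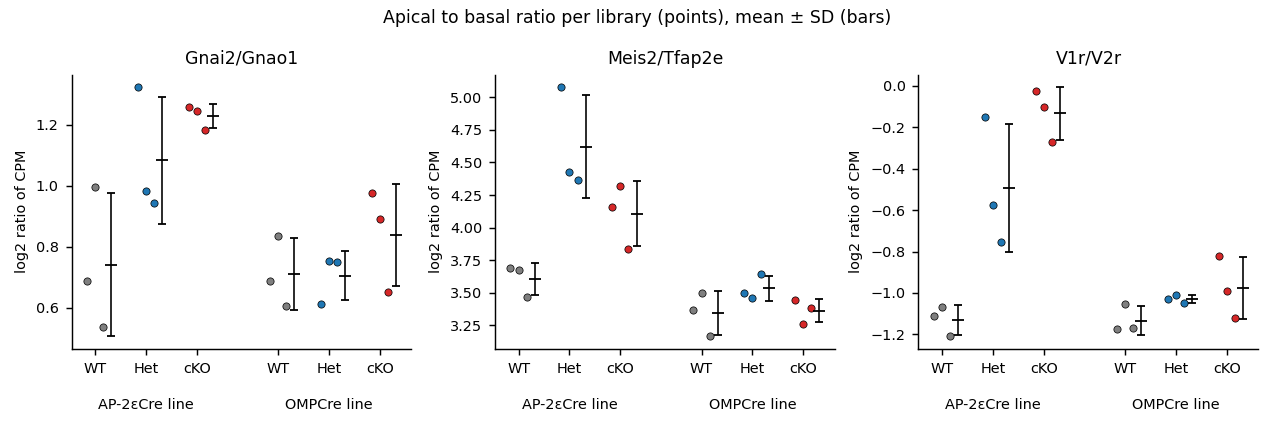
Log2 ratio of apical to basal CPM (y axes) per library for Gnai2/Gnao1, Meis2/Tfap2e and the summed V1r and V2r genes, by genotype and line (x axes), with bars for the mean ± SD (n = 3). For Gnai2/Gnao1 the AP-2εCre cKO libraries lie at 1.18 to 1.26, above the 3 Wild-type libraries, and for Meis2/Tfap2e the AP-2εCre Het libraries are the highest of all.

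Meis2 over Tfap2e ordered the AP-2εCre genotypes in another way. The ratio was 12.2 ± 1.01 in Wild-type, 25.3 ± 7.39 in Het and 17.4 ± 2.89 in cKO libraries, and no pair of these groups overlapped. With 3 libraries against 3 the exact permutation test cannot go below 0.1, which each pair reached. With the controls pooled, the log2 difference of the cKO was -0.01 (exact permutation test, p = 1), or -0.14 without the Wild-type library that goes against its label (exact permutation test, p = 0.75). Its OMPCre values were 10.21 ± 1.18, 11.6 ± 0.782 and 10.31 ± 0.648 in the same order. Because Tfap2e carries the Cre allele in the AP-2εCre line, the part of that allele in this ratio cannot be told apart from that of the neurons.

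The receptors gave another ratio, which leaves out the genes that carry Cre, from the summed counts of 201 V1r and 122 V2r genes. V1r over V2r was 0.457 ± 0.0227 in AP-2εCre Wild-type, 0.721 ± 0.159 in Het and 0.914 ± 0.0793 in cKO libraries. The cKO was higher than both controls by a ratio of 1.60 (exact permutation test, p = 0.0357, adjusted p = 0.214 over 6 ratio tests), but its lowest value, 0.828, was below the 0.899 of Het replicate 1. The Het libraries were already above the Wild-type ones by a ratio of 1.55, without overlap (exact permutation test, p = 0.1, the smallest possible). Against Het alone, which shares the Cre allele, the cKO ratio was 1.28 (exact permutation test, p = 0.2). With the controls pooled, the part of the Cre allele at Tfap2e therefore cannot be told apart from that of Smad4 loss. The exact permutation p was 0.0714 without the Wild-type library that goes against its label, and it was over 0.05 without any other library of the line but cKO replicate 3 and Het replicate 1, up to 0.143. OMPCre libraries were at 0.456 ± 0.0221, 0.490 ± 0.00599 and 0.510 ± 0.0534 in the same order (exact permutation test, p = 0.202). The summed V2r level was 4481 ± 495 CPM in AP-2εCre Wild-type, 3046 ± 918 in Het and 2662 ± 390 in cKO libraries, while the V1r sum was 2044 ± 165, 2103 ± 313 and 2424 ± 331 CPM. Over both lines the log2 difference of cKO from both controls was 0.22 for Gnai2 over Gnao1 (exact permutation within lines, p = 0.0264), 0.39 for V1r over V2r (p = 0.0145) and -0.04 for Meis2 over Tfap2e (p = 0.825), unadjusted and chosen after the values were seen. In the AP-2εCre line the Gnai2 to Gnao1 ratio and the receptor ratio ranked the 3 genotypes alike by their means, and Meis2 to Tfap2e did not. In the OMPCre line these 2 ratios ranked the controls differently. There the Het mean was below Wild-type for Gnai2 over Gnao1 (1.63 and 1.64) and above it for the receptors (0.490 and 0.456).

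Tfap2e and Gnao1 varied together over the 18 libraries, with Pearson's r of 0.88 and Spearman's rho of 0.79 on log2(CPM + 1). The deviations from the group means gave r = 0.84, and r was 0.78 without the 2 libraries farthest from the median of Gnao1. This is a description of libraries that share their neurons, and among the 10 pairs of members it was the highest. Gnai2 and Meis2 gave r = 0.32 over the libraries and -0.31 within groups. The genes closest to Tfap2e were Vmn2r81, a V2r receptor gene, at r = 0.94, Rab3c at 0.93 and Ccdc136 at 0.92, among 15796 genes with a mean of at least 1 CPM. Closest to Gnao1 were Ikzf4 at 0.93, Wipf2 at 0.92 and Vmn2r81 at 0.89. Within groups these values were 0.80 for Tfap2e and 0.78 for Gnao1 with Vmn2r81. Gnai2 was closest to Calm3, at r = 0.84, then Ppic at 0.83 and Ncam1 at 0.82, Meis2 to Wipf3 at 0.74, Mttp at 0.73 and Olfm2 at 0.72, and Bcl11b to Ckb at 0.88, Adam19 at 0.85 and Nrcam at 0.85.

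**Figure D4:**
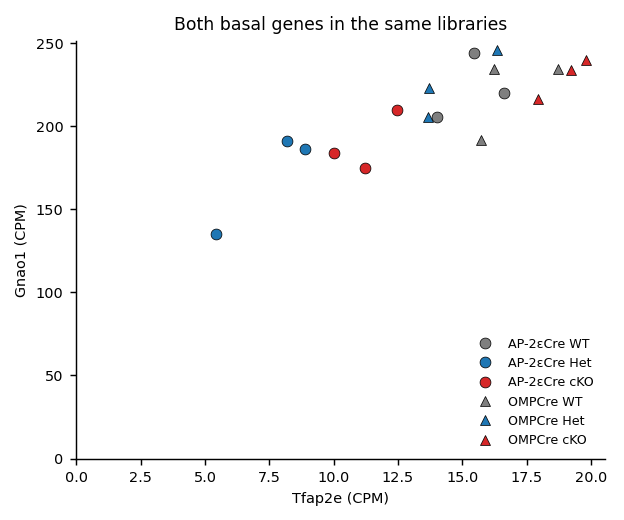
Tfap2e (x axis) and Gnao1 (y axis) in TMM-normalized CPM, 1 point per library, with circles for the AP-2εCre line and triangles for the OMPCre line, coloured by genotype. The libraries with the lowest Tfap2e, from 5.43 CPM, are AP-2εCre Het libraries and also hold low Gnao1.

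The transcripts within each gene were compared next. Tfap2e was counted on a single transcript. Bcl11b-201 held 91.3% to 99.7% of the Bcl11b counts, Gnai2-201 73.0% to 92.2% of the Gnai2 counts, and Meis2-203 29.9% to 56.6% of the Meis2 counts. Of Gnao1, Gnao1-203 held 37.1% and Gnao1-201 35.6% on average. The share of Bcl11b-201 was 94.8% in the AP-2εCre cKO and 96.6% in both controls, lower by 1.79 points (exact permutation test, p = 0.0357, and 0.0536 to 0.179 without any one library but cKO replicate 1 or Wild-type replicate 3), and in the OMPCre line it was higher in the cKO by 2.55 points (exact permutation test, p = 0.131). No other leading transcript differed at an exact permutation p under 0.05 in either line. The second Gnao1 transcript, Gnao1-201, was at 32.3% in the AP-2εCre cKO and 35.9% in its controls (exact permutation test, p = 0.0238), a transcript chosen after its values were seen.

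The 2 coding ends printed above were counted apart, a split also chosen after the transcripts were seen. The Gnao1-207 end held 14.8% ± 1.15 of the counts of the 3 full-length coding transcripts in AP-2εCre Wild-type, 15.6% ± 3.19 in Het and 18.4% ± 3.54 in cKO libraries (SD, n = 3). The cKO libraries overlapped the controls (exact permutation test, p = 0.131). The OMPCre shares were 13.8% ± 0.797, 14.8% ± 3.003 and 13.8% ± 0.478. Meis2 also ends in 2 ways, and the 4 transcripts with the shorter coding end held 30.3% to 41.8% of the full-length coding counts in the group means. Across pairs of genotypes the exact permutation p of either share was at least 0.2.

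**Figure D5:**
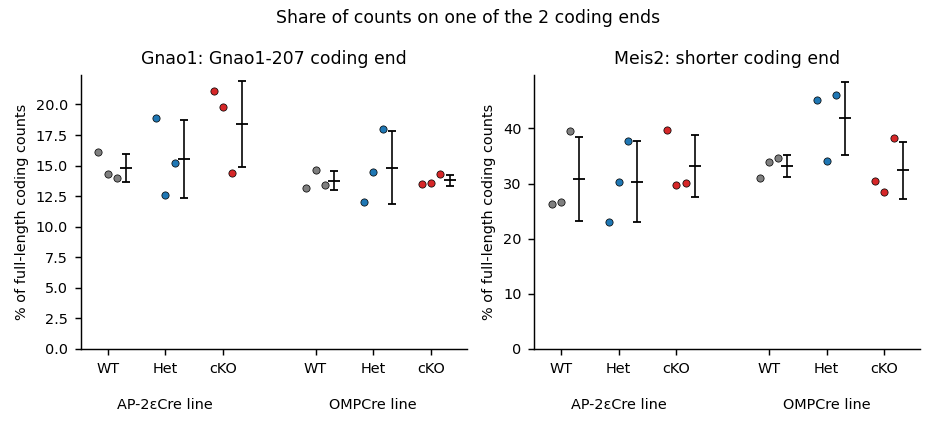
Percent of the counts of full-length coding transcripts (y axes) on the Gnao1-207 coding end and on the shorter Meis2 coding end, by genotype and line (x axes), with points for libraries and bars for the mean ± SD (n = 3). The Gnao1-207 end has its highest group mean, 18.4%, in the AP-2εCre cKO, with overlapping groups.

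Other genes of the same neurons were counted from lists of known markers. Of 19 other basal genes, with family C V2r receptors, H2-Mv genes, the guidance receptor gene Robo2, Kirrel3 and Calr4, 1 fell in AP-2εCre Het against Wild-type, where 0.17% of all tested genes were called by edgeR. The median log2 fold change was -0.56 beside 0.00 over all genes, and all 19 had lower means, as had 48.7% of all genes. In cKO against Wild-type 2 fell, beside 0.149% of all genes called, and the median was -0.89, with 17 lower means, beside 49.2% of all genes. DESeq2 called 6 and 8 of the 19 in these comparisons, each lower, where it called 0.73% and 0.956% of all genes. At an unadjusted p under 0.05 edgeR counted 10 and 12 of the 19, beside 5.74% and 7.84% of all genes. The gene called in both was H2-M9, of the H2-Mv family of basal VSNs, at 12.4 ± 2.72 CPM in Wild-type, 2.40 ± 1.19 in Het and 1.95 ± 0.956 in cKO libraries (edgeR, adjusted p = 0.0258 and 0.0125). The other was Vmn2r5, a family C receptor gene, at 14.4 ± 4.86 CPM in Wild-type and 0.725 ± 0.501 CPM in cKO libraries (edgeR, adjusted p = 0.0167). Without the Wild-type library that goes against its label, H2-M9 was not called in Het (adjusted p = 0.0809) and both genes were called in the cKO (adjusted p = 0.0368 for each, edgeR). The H2-M9 call in Het was also lost without Wild-type replicate 1 or 2 or Het replicate 1 or 3 (edgeR, adjusted p from 0.0506 to 0.15), that in the cKO without Wild-type replicate 1 or cKO replicate 2 (0.0675 and 0.0978), and the Vmn2r5 call without Wild-type replicate 1 or any cKO replicate (0.0509 to 0.111). In cKO against Het edgeR called none of the 19, beside 0.139% of all genes, and counted 6 at an unadjusted p under 0.05, beside 10.08%. DESeq2 called H2-M10.4 and Robo2, both higher, beside 1.42% of all genes, and the median was -0.31. Robo2 was at 123 ± 9.88 CPM in Wild-type, 87.6 ± 14.2 CPM in Het and 127 ± 14.3 CPM in cKO libraries (cKO against Het, adjusted p = 0.162 in edgeR and 0.0116 in DESeq2). H2-M10.4, another H2-Mv gene, was at 35.2 ± 7.42, 13.8 ± 7.37 and 45.9 ± 11.4 CPM in the same order (adjusted p = 0.0758 in edgeR and 5.4e-05 in DESeq2). Between cKO and Wild-type libraries the log2 fold changes of both genes were 0.04 ± 0.129 and 0.38 ± 0.342, within or close to their standard errors. With OMPCre, edgeR called 0 of 19 in the 3 genotype comparisons, where it called 0.0462%, 0.0205% and 0.0822% of all genes. It counted 0, 2 and 4 at an unadjusted p under 0.05, beside 6.76%, 5.13% and 4.76%, and the medians were -0.09 to 0.03. DESeq2 called H2-M10.4 in OMPCre cKO against Het (1.24 on the log2 scale), beside 0.565% of all genes. In the difference between the lines of Het against Wild-type the median was -0.57 with all 19 lower, beside 49.6% of all genes. There edgeR called none of them, while DESeq2 called H2-M9 (-2.21 on the log2 scale), beside 0.375% of all genes. Between the Wild-type groups 18 of 19 had higher means in the AP-2εCre line, beside 51.2% of all genes, with a median of 0.17 and no call by edgeR or DESeq2.

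The 5 other apical genes, Nrp2, Ncam2, Pde4a, Kirrel2 and Efna5, gave no call by edgeR in any of the 9 comparisons, where it called 0.00514% to 0.17% of all genes. At most 3 had an unadjusted p under 0.05, in AP-2εCre cKO against Wild-type, beside 7.84% of all genes. DESeq2 called 1, Pde4a, in AP-2εCre cKO against Het, beside 1.42%. Their medians were 0.29 in AP-2εCre cKO against Wild-type, with 4 higher means, and 0.19 against Het, with 5, beside 50.6% and 49.9% of all genes with higher means. Pde4a, a cAMP phosphodiesterase gene, was at 63.3 ± 3.94 CPM in the AP-2εCre cKO and 48.6 ± 2.75 CPM in Het libraries (adjusted p = 0.14 in edgeR and 0.0094 in DESeq2). Nrp2, the receptor of apical axons, was at 361 ± 30.2 and 302 ± 6.99 CPM in the same groups. In the same 9 comparisons edgeR called no gene among 14 other G alpha genes, 5 G beta and gamma genes, 4 genes of both VSN kinds (Trpc2, Omp, Ano1 and Ano2) or 9 tested of 10 paralogs and partners of the 3 factors. Without adjustment, no comparison had more than 1, 1, 2 and 3 genes of these lists below a p of 0.05, beside 4.76% to 10.08% of all genes. DESeq2 called Omp and Tfap2b, both lower, and Gnal, higher, in OMPCre Het against Wild-type, Gnal, lower, in OMPCre cKO against Het, where the lines also differed for it, and Tfap2c, lower, in AP-2εCre cKO against Het, beside 0.272% to 1.42% of all genes in these comparisons. Ano1, a calcium-activated chloride channel gene singled out after its values were seen, was at 95.1 to 127 CPM in the AP-2εCre cKO, 132 to 184 CPM in Het and 146 to 152 CPM in Wild-type libraries, which did not overlap the cKO, in a line where 4.94% of tested genes separated in this way. Its log2 fold change was -0.44 ± 0.126 against Het (adjusted p = 0.251 in edgeR and 0.0525 in DESeq2) and -0.40 ± 0.126 against Wild-type (0.378 and 0.14), or -0.40 without the Wild-type library that goes against its label (edgeR, adjusted p = 0.648). Gnal, the G alpha gene of the main olfactory pathway, was at 94.6 ± 8.17 CPM in OMPCre Het and 38.9 ± 13.4 in Wild-type libraries (edgeR, adjusted p = 0.0675), a gene singled out after its values were seen. The summed markers of main olfactory neurons (Cnga2, Cnga4, Gnal and Adcy3) were at 201 to 246 CPM in OMPCre Het, 102 to 137 in Wild-type and 105 to 145 in cKO libraries. All 4 had lower means in OMPCre cKO than in Het, with a median log2 fold change of -0.84, in the comparison in which the Tfap2e values of the cKO lay above those of the Het libraries, and their part in the member values was not tested.

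Markers of other cells were read beside the member values. The sum of the sustentacular genes Cyp2g1, Cyp2a5 and Sec14l3 was 1166 to 2633 CPM in AP-2εCre Het, 790 to 1236 in Wild-type and 552 to 916 in cKO libraries, so that it ran opposite to Tfap2e between Het and cKO. The sum of Trpc2 and Omp was 503 to 577 CPM in Wild-type, 343 to 575 in Het and 540 to 657 in cKO libraries of that line. For mesenchyme (Col1a1, Col1a2, Pdgfra and Dcn) the range was 14653 to 34257 CPM in Wild-type, 26398 to 27983 in Het and 28350 to 34777 in cKO libraries, so that cKO and Het did not overlap. In the OMPCre line it was 14050 to 24333, 23479 to 33351 and 17350 to 28121 CPM in the same order, and all 4 markers had higher means than Wild-type in Het and in cKO libraries, with median log2 fold changes of 0.35 and 0.24. The endothelial sum was 159 to 1449 CPM in the AP-2εCre cKO, 183 to 697 in Het and 175 to 467 in Wild-type libraries, which overlapped, as did the sum for glia. The part of these cells in the member values was not tested. Without AP-2εCre Het replicate 1, the Tfap2e log2 fold change of Het against Wild-type was -0.85 (edgeR, adjusted p = 0.0236).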

How the data were processed

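The authors extracted RNA from whole VNOs, made directional polyA+ libraries and sequenced single reads of 75 bases. Per the labels they used Salmon 0.14.0 and DESeq2 1.22.2 with mouse mm10 (GRCm38). The methods name a coding assembly, but 35.5% of the transcript lengths in the files are multiples of 3, so the lengths include untranslated parts. The deposited files give an estimated count per transcript, not scaled for depth, and TPM, which the authors' run scaled to transcript length and to a fixed sum per library. Strand handling in the counting is not given in the sources used here, and 4930488L21Rik lies antisense to Gnao1 exons.

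Estimated counts were added per gene with GENCODE vM21 (116072 of 116248 transcripts; the others held at most 0.0324% of a library) and rounded. edgeR 4.0.16 (R 4.3.3) fitted 6 group means over 18 libraries, with TMM, filterByExpr, 12 residual degrees of freedom and Benjamini-Hochberg adjustment over 19465 genes. CPM are counts scaled to TMM-adjusted library sizes. Single values and ratios were compared by exact two-sided permutation over libraries. The precision is that of 3 libraries per group, and 3 counts were under 0.1 CPM in every library. The members and lists were chosen with earlier results of these data known, and the members are the genes named together with the list genes and, for each member, the 3 genes of highest r. Alternatives were DESeq2 1.42.0, DESeq2 size factors in edgeR, 2 other count filters, length-scaled TPM counts, each line fitted alone, the form of the library names as a covariate, a replicate block, an adjusted p under 0.1, deposited TPM, each control alone, and each library left out. DESeq2 and the left-out libraries were added for the list genes after the values were seen. The labels call replicates biological and do not say whether each is 1 animal, so p-values measure the spread between these libraries. Same-numbered libraries of OMPCre Het and cKO deviated together (correlations of 0.232, 0.189 and 0.523 for numbers 1 to 3), and the block changed no member call there. These pairs also shared the form of their library names. Differently numbered pairs of these groups were at 0.226 and 0.108 with the same form, and at -0.231 to -0.364 with unlike forms. The correlations thus went with the form of name also where the numbers differed. In the other pairs of groups, same-numbered libraries did not all deviate together. The library with conflicting labels entered no comparison. The list of neuron lineage genes is not reported here. Other steps ran in Python 3.11.15 with pandas 2.3.3, numpy 2.4.6 and, for figures, matplotlib 3.10.9.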

Additional observations from a re-analysis of the deposited data

Results flagged for a closer look

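One AP-2εCre library was left out of every comparison because its title names a heterozygote and its genotype label names Smad4 Flox as well. In it Meis2 was at 213 CPM, above the highest of the 6 AP-2εCre controls, 199 CPM, and above the cKO libraries, which reached 201 CPM. The value was found in a sample that the comparisons did not use, and the level was set by TMM over 19 libraries. It has no replicate and no test.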

How the results depend on the processing

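Under the alternatives in the set of fits over all genes, the fall of Tfap2e in AP-2εCre Het against Wild-type kept its direction. It lost its call with length-scaled TPM counts (-0.998, adjusted p = 0.0538) and with each line fitted alone (-1.03, adjusted p = 0.187), while DESeq2 called Tfap2e in AP-2εCre cKO against Het (0.58). The cause was not tested. Length-scaled TPM counts reversed 11 small log2 fold changes: Gnai2 in OMPCre Het against Wild-type (-0.17), between Wild-type groups (-0.20) and in the line difference of Het against Wild-type (0.00476), Meis2 in Het against Wild-type of the AP-2εCre (0.061) and OMPCre line (0.12) and in the line difference of cKO against Het (0.13), Gnao1 in OMPCre Het against Wild-type (-0.017), cKO against Wild-type (-0.029), cKO against Het (-0.011) and between Wild-type groups (-0.0023), and Bcl11b in OMPCre Het against Wild-type (0.031). They raised Gnai2 in the AP-2εCre cKO to 0.56 against Wild-type and 0.73 against Het, neither called. With the form of the library names as a covariate, Bcl11b between Wild-type groups was 0.093.

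With the replicate block, Tfap2e in AP-2εCre Het against Wild-type was -1.05 (adjusted p = 0.0411), and the differences between Wild-type groups reversed for Gnai2 (-0.026), Gnao1 (-0.12) and Bcl11b (0.042). The blocked log2 difference of V1r/V2r in the AP-2εCre cKO was 0.68, with an exact sign-flip p of 0.25, the smallest possible. The block changed no other call of a member. Outside OMPCre Het and cKO not every same-numbered pair had a correlation over 0.1, so the numbers were not taken to pair libraries there. In the AP-2εCre line, cKO replicates 1 and 3 differed in form of name from the Wild-type and Het libraries of their number. Same-numbered libraries there had correlations of 0.060, -0.11 and 0.19 for Wild-type with Het, and -0.26, -0.31 and -0.16 for Het with cKO. The block thus joined unlike libraries in that line, and it moved the genes called in AP-2εCre Het against Wild-type from 33 to 11.

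V1r/V2r in the AP-2εCre cKO was 0.996 against Wild-type alone, 0.36 against Het alone and 0.54 in letter-named libraries, and missed the threshold in each. Meis2/Tfap2e reversed to 0.17 on TPM and 0.50 against Wild-type alone in the AP-2εCre line, and to 0.018 against Wild-type alone in the OMPCre line. On TPM the cKO differences were 0.87 and 0.22 for Gnai2 (AP-2εCre and OMPCre), 0.60 for Bcl11b (AP-2εCre), 0.52 and 0.13 for Meis2 (AP-2εCre and OMPCre) and 0.13 and -0.045 for Gnao1, and as shares of TPM -6.66 and -1.73 points for Gnai2-201, -0.47 points for Meis2-203 (AP-2εCre) and 0.27 points for Gnao1-203 (OMPCre).

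DESeq2 called 142, 186 and 277 genes in AP-2εCre Het against Wild-type, cKO against Wild-type and cKO against Het, where edgeR called 33, 29 and 27, and 115, 68 and 110 in the OMPCre line, where edgeR called 9, 4 and 16. Between Wild-type groups it called 110 (edgeR 1), and for the line differences 73 and 53 (edgeR 5 and 6). The other alternatives gave at least 9, 5, 18, 3, 1, 5, 0, 1 and 2 genes in the same order. Over the fits without 1 library, which assume a pair of libraries to vary like the other groups, genes called ranged from 9 to 35, 7 to 46, 12 to 32, 8 to 18, 0 to 8, 5 to 19, 1 to 5, 5 to 8 and 4 to 10.

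Leaving out each library in turn gave these lowest and highest log2 differences, or percentage points for transcript shares, where a call or sign changed. Transcript shares were -2.34 to -1.11 for Bcl11b-201 AP-2εCre cKO, -0.58 to 3.92 for Gnai2-201 OMPCre cKO, -1.57 to 6.65 for Meis2-203 AP-2εCre cKO, -3.10 to 3.42 for Meis2-203 OMPCre cKO and -2.12 to 1.17 for Gnao1-203 OMPCre cKO. Gnai2 was -0.17 to 0.0056 for AP-2εCre Het against WT, -0.0065 to 0.064 for OMPCre Het against OMPCre WT and -0.014 to 0.16 for AP-2εCre WT against OMPCre WT. Meis2 was -0.091 to 0.056 for OMPCre Het against OMPCre WT and -0.11 to 0.041 for line difference of Het against WT. Gnao1 was -0.062 to 0.087 for OMPCre Het against OMPCre WT, -0.030 to 0.11 for OMPCre cKO against OMPCre WT, -0.030 to 0.10 for OMPCre cKO against Het, -0.073 to 0.073 for AP-2εCre WT against OMPCre WT and -0.028 to 0.21 for line difference of cKO against Het. Tfap2e was -1.17 to -0.85 for AP-2εCre Het against WT. Bcl11b was -0.081 to 0.088 for OMPCre Het against OMPCre WT and -0.082 to 0.089 for AP-2εCre WT against OMPCre WT. Ratios were 0.24 to 0.40 for Gnai2/Gnao1 AP-2εCre cKO, 0.063 to 0.23 for Gnai2/Gnao1 OMPCre cKO, -0.14 to 0.18 for Meis2/Tfap2e AP-2εCre cKO and 0.60 to 0.81 for V1r/V2r AP-2εCre cKO. Levels against both controls were 0.23 to 0.32 for Gnai2 AP-2εCre cKO, 0.13 to 0.26 for Gnai2 OMPCre cKO, 0.041 to 0.13 for Meis2 AP-2εCre cKO, -0.14 to 0.029 for Gnao1 AP-2εCre cKO, -0.11 to 0.21 for Tfap2e AP-2εCre cKO, 0.24 to 0.33 for Tfap2e OMPCre cKO and 0.21 to 0.34 for Bcl11b AP-2εCre cKO. Depth limits the members little, since each held at least 353 counts in every library.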

Other observations

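The other values of the AP-2εCre library with conflicting labels were Gnai2 at 363 CPM, Gnao1 at 160 CPM, Tfap2e at 6.83 CPM and Bcl11b at 29.7 CPM. Its ratio of Gnai2 to Gnao1 was 2.27 and that of Meis2 to Tfap2e 31.1. In the same scaling Tfap2e ranged from 5.44 to 8.89 CPM in the Het, 10.0 to 12.5 CPM in the cKO and 14.0 to 16.6 CPM in the Wild-type libraries of that line. Its Trpc2 was at 115 CPM and its Omp at 413 CPM. No group was taken from these values.

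Relative to Trpc2 in the same library, Gnai2 was at 3.62 ± 0.500 in AP-2εCre Wild-type, 4.41 ± 2.09 in Het and 4.17 ± 0.777 in cKO libraries (SD, n = 3), and Gnao1 at 2.15 ± 0.142, 2.01 ± 0.641 and 1.78 ± 0.352. OMPCre libraries held Gnai2 at 3.33 ± 0.722, 2.98 ± 0.147 and 4.26 ± 0.898, and Gnao1 at 2.02 ± 0.287, 1.83 ± 0.160 and 2.36 ± 0.335. For Gnai2 all 3 cKO libraries were above the 3 Het libraries, and 10.52% of all tested genes separated these groups in CPM. The cKO libraries overlapped the Wild-type ones, with a lowest value of 3.30 beside a highest of 4.02. These ratios are given without a test.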
